A study of Mus musculus with 2 samples.

Results

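Naive-type CD8 T cells were the T cells of a mouse tumour that carried the CD8 beta chain and the genes of the resting naive state but no granzyme B. They were picked by their unique molecular identifiers (UMIs), each of which stands for 1 captured transcript. A barcode was taken as a member when mitochondrial UMIs made up at most 10% of its total, Cd3d, Cd3e and Cd3g together had at least 2 UMIs, Cd8b1 had at least 1, Cd4, Gzmb and Cd79a had 0, and Lef1, Tcf7 and Ccr7 together had at least 2. Barcodes with 3 or more UMIs of the cell cycle genes Mki67 and Top2a, or with 20 or more of the macrophage genes C1qa, C1qb and C1qc, were left out. The rule found 1378 of 12514 barcodes, and the values of these genes describe the choice and are no finding.

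The study set tumours of MTC-Q1 miR-21 KO cells, a mouse oral cancer line that lacks the microRNA miR-21, against tumours of MTC-Q1 WT cells. Both were grown under the skin of C57BL/6 mice for 2 weeks, and all mice then received 5 mg/kg of cisplatin, a drug that crosslinks DNA. After 72 hours the tumours were dissociated, dead cells were removed, and cells with the leukocyte antigen CD45 were selected on beads and sequenced from the 3′ ends of their transcripts. The knockout lies in the tumour cells, and there is 1 library per group. No source used here states the age or sex of the mice or how many tumours were pooled. The 2 libraries are kept apart as library 1 and library 2, because neither number is linked to a group, so nothing below compares miR-21 KO with WT tumours.

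A naive CD8 T cell has left the thymus and has not yet met its antigen. It circulates between blood and lymphoid organs with homing receptors such as CCR7 (Ccr7) and S1PR1 (S1pr1), and it is kept at rest and alive by transcription factors such as LEF1, TCF1 (the product of Tcf7), KLF2 and FOXO1 and by interleukin 7. After activation it loses these genes and gains granzymes, perforin and interferon gamma, and mouse CD8 T cells that respond strongly to cytokines can take on memory genes without foreign antigen.

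Members lay almost wholly in library 1. It held 1356 of them, 25.5% of its 5320 barcodes (exact binomial interval 24.3% to 26.7%), and library 2 held 22, 0.306% of its 7194 barcodes (0.192% to 0.463%). T cells needed the same limits on mitochondrial, CD3, Cd79a, cell cycle and C1q UMIs, so cycling T cells were not counted among them. Members were 42.2% of 3210 such T cells in library 1 and 2.08% of 1056 in library 2. Of the CD8 T cells, which also needed Cd8b1 and no Cd4, they were 91.6% of 1480 in library 1 and 5.57% of 395 in library 2. Intervals here and below are at 95% and cover counting error only, and with 1 library a group no difference between libraries or classes has a replicate or a p-value. Fewer cells of a class and fewer recovered from the tumour cannot be told apart in these shares.

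The libraries stood apart in depth and in other ways. Barcodes had a median of 7169 UMIs in library 1 and 15247.5 in library 2, and members had medians of 6828.5 UMIs and 1722 genes in library 1 and 7956.5 UMIs and 2060.5 genes in library 2. Members of library 1 held 10672827 UMIs in all and those of library 2 held 213043. The libraries shared 8 barcode sequences, of which 1 belonged to a member. Xist, the RNA of the inactive X chromosome, had 695 CPM (UMIs of a gene per 1000000 UMIs of the class) in T cells of library 1 and 0.375 CPM in those of library 2. It had 684 CPM in the members of library 1, where 1136 of 1356 had a UMI, and 2 UMIs in all in the members of library 2. The Y-linked genes Ddx3y, Eif2s3y, Kdm5d and Uty had 3 to 8 UMIs each in T cells of library 1 and 0 in those of library 2. For 0 UMIs in library 2 T cells the exact interval reached up to 0.276 CPM. These genes were looked at after their values were seen, and their relation to the groups was not tested.

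The label was checked against the markers Cd8b1, Lef1, Ccr7 and Dapl1, of which the rule had used the first 3. In library 1 a member had a median of 3 UMIs of Cd8b1 (range 1 to 20), 3 of Lef1, 4 of Ccr7 and 2 of Tcf7. Dapl1, a gene that marks naive and early memory T cells in the mouse and that the rule did not use, had at least 1 UMI in 59.7% of members. It stood at 351 CPM in members, against 261 CPM in naive-type CD4 cells and 0.634 CPM in B cells of the same library. Cd8a, the CD8 alpha chain, was also outside the rule and had 221 CPM with a UMI in 72.3% of members, against 0.634 CPM in B cells. Both genes outside the rule thus went with the label in library 1 when set against B cells. Against the effector-type CD8 cells of that library, described below, Dapl1 did not pass the limits for a called gene. On mm10, with GENCODE vM21, Cd8b1 lies on chr6:71322788-71337494 and Cd8a on chr6:71373427-71379173, Dapl1 on chr2:59484653-59505020, Lef1 on chr3:131110471-131224356 and Ccr7 on chr11:99144196-99155077.

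Comparison classes were drawn from library 1 by mirrored rules. Naive-type CD4 cells (717, median 5660 UMIs) needed Cd4, no Cd8a, Cd8b1 or Foxp3 and the same other limits. Effector-type CD8 cells (92, median 9630.5 UMIs) needed at least 1 Gzmb UMI and had no limit on Lef1, Tcf7 and Ccr7, and B cells (434, median 5174 UMIs) needed at least 2 Cd79a UMIs and no CD3. Of the 92 effector-type cells, 43 had exactly 1 Gzmb UMI and 68 met the naive limit on Lef1, Tcf7 and Ccr7. A stricter class, added after the data were seen, needed at least 3 Gzmb UMIs and fewer than 2 UMIs of Lef1, Tcf7 and Ccr7 together. It had 16 cells in library 1 and 221 in library 2, here called strict effectors. Because this choice selects for killing genes and against naive genes, it partly sets how far members stand from strict effectors in such genes.

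Some members carried transcripts of other cells. The 14 myeloid markers summed to 715 CPM in members of library 1, against 817 CPM in naive-type CD4 cells, 584 CPM in effector-type CD8 cells and 5328 CPM in B cells, and each was detected in members. In members the 12 B cell markers summed to 179 CPM with Cd79a at 0 by the rule, and the 9 NK cell markers to 61 CPM, against 838 CPM in effector-type cells. Rag1 and Rag2, the recombinase genes of thymocytes, were at 0 in members. Of the 1356 members, 69 had 3 or more UMIs of a B cell, myeloid, NK or fibroblast marker pair or set, or more than 20000 UMIs, and the 1287 without them are called screened members. In screened members the myeloid markers summed to 347 CPM, which the screen itself lowered, since it left out cells by myeloid genes. The screen used few of the markers. Over all 14 myeloid markers together, 46.6% of members and still 43.7% of screened members had 3 or more UMIs. Over the 12 B cell markers these shares were 18.1% and 17.2%, so screened members are not free of such transcripts.

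Genes of the naive state were present in members of library 1 at levels near those of naive-type CD4 cells. Among homing receptors, S1pr1, which guides exit from lymph nodes, had 340 CPM in members (interval 329 to 351), 468 CPM in naive-type CD4 cells and 8.30 CPM in strict effectors of library 2. Il7r, the interleukin 7 receptor chain, had 430 CPM in members, 515 CPM in naive-type CD4 cells and 43.1 CPM in strict effectors of library 2. Members and naive-type CD4 cells were thus within 2-fold of each other for both genes. The 16 strict effectors of library 1 had 2 UMIs of each gene, 15.8 CPM, so that within that library the log2 ratio of members over strict effectors was 4.43 (interval 2.57 to 7.47) for S1pr1 and 4.77 (2.91 to 7.81) for Il7r.

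Transcription factors of the resting state were also higher in members than in strict effectors of library 2. Klf2, which drives S1pr1, had 1705 CPM in members, with a UMI in 97.2% of cells, against 1573 CPM in naive-type CD4 cells, 1084 CPM in effector-type CD8 cells, 142 CPM in strict effectors of library 1 and 159 CPM in those of library 2. Satb1, a chromatin organiser of T cells, had 735 CPM in members, 1004 CPM in naive-type CD4 cells and 129 CPM in strict effectors of library 2. Foxp1, a guard of quiescence, had 399 CPM in members and 99.7 CPM in strict effectors of library 2, and Bach2, a repressor of effector genes, had 86.3 and 9.49 CPM. Ribosomal protein genes took 42.9% of members' UMIs, against 41.0% in naive-type CD4 cells, 37.9% in effector-type cells and 29.7% in strict effectors of library 2. Leaving out only genes named Rpl, Rps or mt-, the most abundant transcripts were Gm42418, which overlaps ribosomal RNA, Malat1, Tpt1, Fau and Eef1a1.

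**Figure D1:**
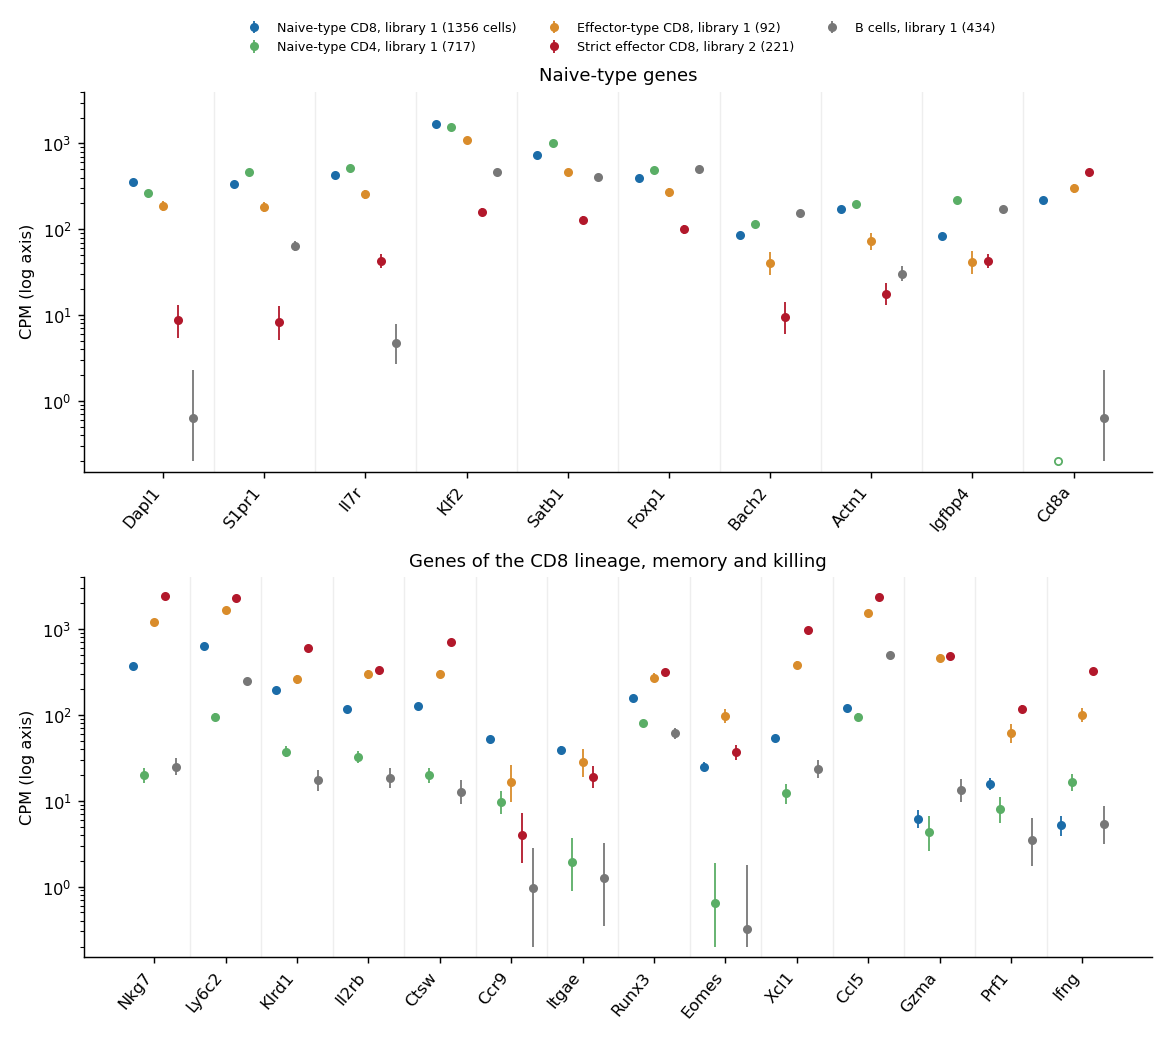
Summed level in CPM (log axis) of 24 genes in 5 classes of cells, with exact Poisson 95% intervals that cover counting error only; the open circle is a class with 0 UMIs, drawn at 0.2, and bars that reach below 0.2 are cut there. In the upper panel naive-type CD8 cells lie within 2-fold of naive-type CD4 cells except for Igfbp4 and for Cd8a, which the CD4 rule set to 0, and for Nkg7, Ly6c2, Klrd1, Il2rb and Ctsw in the lower panel they lie between naive-type CD4 cells and both effector classes.

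Naive-type CD8 and CD4 cells of library 1 were compared over 7257 genes with at least 100 UMIs in the 2 classes together. A gene was called when its CPM ratio was at least 2-fold and the exact interval of the ratio excluded 1.5-fold. Members were higher for 89 genes (1.23%) and lower for 94 (1.30%), and the median log2 ratio of all 7257 was -0.02. Of the 8 genes listed for the CD4 lineage, 7 were tested and all 7 were lower in members, Cd4 by the rule itself. Among them Cd40lg, the ligand by which helper T cells activate B cells, had 4.40 CPM in members and 66.5 CPM in naive-type CD4 cells. Izumo1r, which encodes folate receptor 4, had 17.9 and 65.3 CPM in the same order, and Gata3, a helper T cell factor, 19.2 and 42.8 CPM. Zbtb7b, the factor that fixes the CD4 fate in the thymus, had 1.12 CPM in members and 12.8 CPM in naive-type CD4 cells but too few UMIs to be tested.

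Genes higher in members included granule, NK receptor and homing genes. Nkg7, a protein of cytotoxic granules, had 367 CPM in members and 19.9 CPM in naive-type CD4 cells (log2 ratio 4.20, interval 3.91 to 4.52). With each cell thinned to 4000 UMIs, so that depth was equal, 64.8% of members had a Nkg7 UMI, against 2.79% of naive-type CD4 cells and 2.07% of B cells. Nkg7 was thus found in most members and at the level of B cells in naive-type CD4 cells. Ctsw, a protease of killer cells, had 126 CPM in members and 19.9 CPM in naive-type CD4 cells, and Cst7, a cathepsin inhibitor, had 51.4 and 8.77 CPM. Klrd1, which encodes the NK receptor chain CD94, had 197 CPM in members and 37.4 CPM in naive-type CD4 cells, and thinned to equal depth it was found in 49.8% of members, 10.6% of naive-type CD4 cells and 2.07% of B cells. Klrk1, another NK receptor gene, had 7.40 CPM in members and 7.70 CPM in naive-type CD4 cells. Of 9 tested killing genes 2 were higher in members (Nkg7 and Ctsw) and 2 lower (Ifng and Fasl), with a median log2 ratio of -0.13. Ifng, which encodes interferon gamma, had 5.15 CPM in members and 16.5 CPM in naive-type CD4 cells, and Fasl, a death ligand, 5.53 and 21.2 CPM.

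A cytokine receptor chain and 2 genes of the receptor activation list were also higher in members, while that list as a whole was not. Il2rb, the receptor chain shared by interleukins 2 and 15, had 116 CPM in members and 32.7 CPM in naive-type CD4 cells. Dusp2, a phosphatase of MAP kinases, had 710 CPM in members and 260 CPM in naive-type CD4 cells, and Nr4a2, an orphan nuclear receptor induced by receptor signals, had 155 and 61.4 CPM. The related Nr4a1 went the other way without reaching the 2-fold limit, at 106 CPM in members and 173 CPM in naive-type CD4 cells. Cd69, an early activation antigen, had 507 CPM in members and 400 CPM in naive-type CD4 cells. Of 15 genes listed for receptor activation, 2 were higher in members and 1, Il2ra, was lower. The median log2 ratio of that list was -0.24, against -0.02 over all tested genes. Of 15 listed genes of receptor signalling outside the rule, 0 were higher and 0 lower, with a median of -0.08.

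Homing receptors of gut and epithelium set the naive classes apart. Ccr9, the receptor that guides T cells to the small intestine, had 52.1 CPM in members and 9.63 CPM in naive-type CD4 cells, where 1 cell held 77.8% of its UMIs. Thinned, it was found in 16.2% of members, 0.837% of naive-type CD4 cells and 0.230% of B cells. Itgae, the integrin alpha chain that binds E-cadherin, had 39.4 CPM in members and 1.93 CPM in naive-type CD4 cells, and thinned it was found in 15% of members, 0.279% of naive-type CD4 cells and 0.461% of B cells. The other 9 genes of the homing list, Ccr7 among them, passed neither limit. Among 15 tested transcription factors Runx3, which silences Cd4 in the CD8 lineage, was higher in members (159 against 79.6 CPM), and its relative Runx1 was lower (41.9 against 95 CPM). Lef1 and Tcf7 had 428 and 315 CPM in members and 513 and 420 CPM in naive-type CD4 cells.

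Further genes were among the 15 with the highest ratio. Bend4 had 57.1 CPM in members and 1.5 CPM in naive-type CD4 cells, and Lcn4 had 71.3 and 4.07 CPM. Fam241a had 257 and 30.0 CPM, and Dnajc15, a co-chaperone of mitochondria, 186 and 48.4 CPM. Epsti1, an interferon-induced gene, had 366 CPM in members and 122 CPM in naive-type CD4 cells, and Gm26532 had 81.0 and 27.2 CPM. Plac8 had 273 CPM in members and 85.6 CPM in naive-type CD4 cells, where 1 cell held 21.0% of its UMIs. Ly6c2, a surface protein of memory-type CD8 T cells and monocytes, had 628 CPM in members and 95.4 CPM in naive-type CD4 cells, while its close copy Ly6c1 had 10.7 and 172 CPM. In naive-type CD4 cells 1 cell held 26.5% of the Ly6c2 UMIs. Ly6c1 and Ly6c2 are so alike that reads could be assigned to the wrong copy, and these opposite values are given with that limit.

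Genes lower in members were partly set by few cells. Tbc1d4, a regulator of glucose transporter traffic, had 13.5 CPM in members and 95 CPM in naive-type CD4 cells, St8sia6, a sialic acid transferase, had 3.47 and 56.3 CPM, and Maf had 20.3 and 78.1 CPM. Itm2a had 29.9 CPM in members and 111 CPM in naive-type CD4 cells, Tmem64 had 33.2 and 137 CPM, and Igfbp4, an insulin-like growth factor binding protein, had 82.7 and 217 CPM. For Il22, Bgn and Cxcl10 a single naive-type CD4 cell held 99.6%, 91.3% and 72.9% of that class's UMIs. The MHC class II genes H2-Aa and Cd74 had 44.0 and 113 CPM in members and 122 and 262 CPM in naive-type CD4 cells, where 1 cell held 42.7% of H2-Aa and 36.6% of Cd74. The 11 dendritic cell markers summed to 211 CPM in members and 512 CPM in naive-type CD4 cells, and their part in this was not tested. Tnfrsf4, the costimulatory receptor OX40, had 14.4 CPM in members, where 1 cell held 32.5%, and 62.9 CPM in naive-type CD4 cells.

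**Figure D2:**
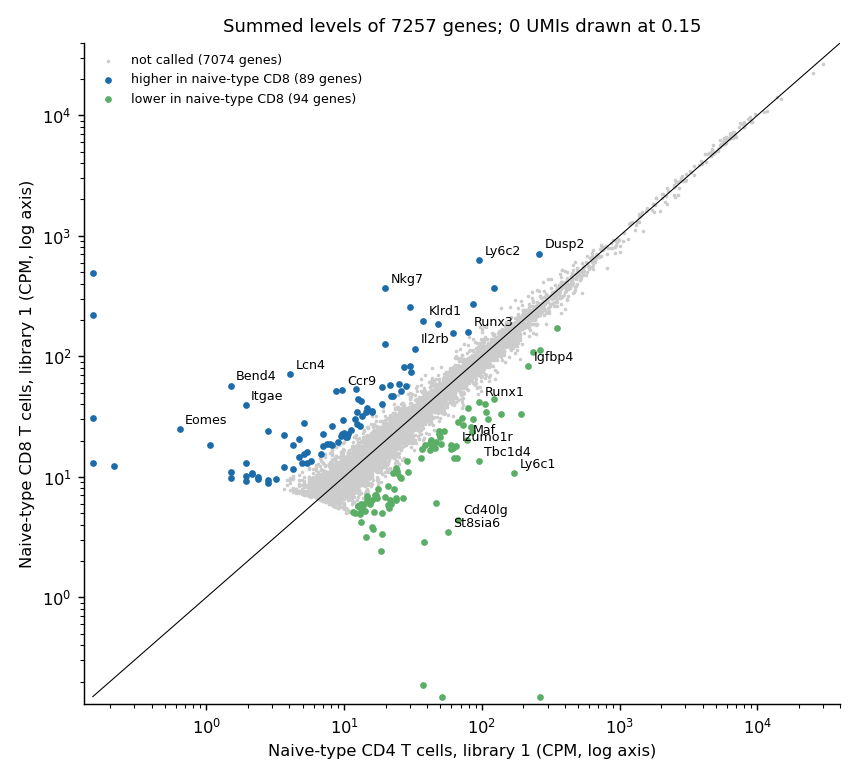
Each point is 1 of 7257 genes, with its CPM in naive-type CD8 cells (vertical, log axis) against its CPM in naive-type CD4 cells (horizontal, log axis) of library 1; points at 0.15 have 0 UMIs. Most genes lie near the diagonal, 89 called genes lie above it and 94 below it, and the points at the left edge include Cd8a and Cd8b1, which naive-type CD4 cells lack by their rule.

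Most lists held few or no called genes between the naive classes. Over all 7257 tested genes only 1.23% were higher and 1.30% lower, so a short list without a call is near that share and is no finding about its genes. No gene passed in the lists for quiescence (15 tested), survival and cytokine receptors (18), p53 targets (19), MHC class I (11) or translation (15), whose median log2 ratios were -0.18, -0.10, -0.26, 0.10 and 0.03. Of 24 interferon-induced genes none was higher in members and 2, Ifit2 and Ifit3b, were lower, with a list median of -0.09. Cdkn1a, the p53 target that halts the cell cycle, had 34.1 CPM in members and 42.8 CPM in naive-type CD4 cells, and Bax had 69.3 and 64.2 CPM. Of 20 published targets of miR-21, 12 were tested and 1, Fasl, was lower in members; Pdcd4 had 482 CPM in members and 471 CPM in naive-type CD4 cells. Of 15 tested memory genes 6 were higher (Il2rb, Eomes, Nkg7, Ly6c2, Xcl1 and Klrd1) and 1 lower (Ly6a), with a median of 0.35. For Xcl1, at 53.5 CPM in members and 12.2 CPM in naive-type CD4 cells, 1 cell held 13% of the members' UMIs and another 61.4% of those of naive-type CD4 cells. No gene passed among 8 tested genes of crosslink repair or 16 of the response to tissue dissociation.

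Promoters of the genes higher in members were searched for the RUNX motif TGTGGT on either strand (written ACCACA where it lies on the other strand), since Runx3 was itself among them. RefSeq promoter sequences on GRCm38.p6, from 250 bases before to 50 after the start, were found for 65 of the 89 genes, and 18 of the 65 held the motif (27.7%). It occurred in 9 of 68 genes lower in members (13.2%), in 701 of 5766 tested genes with a promoter (12.2%) and in 16.9% of all 27025 promoters. The TCF/LEF motif CTTTGA, or TCAAAG, was in 12.3% of the higher, 16.2% of the lower and 11.6% of the tested genes. The genes with a RUNX match among those named by rule or list were Nkg7, Ly6c2, Cst7, Xcl1, Plac8, Cd160 and Runx3. A match is a run of letters and not a shown binding site. The promoter of Nkg7 is given whole, and for 5 others the stretch around the first match, because they hold matches in genes that differ between the naive classes; capitals mark RUNX matches, and all are read 5′ to 3′ on the strand of the gene.
Nkg7, chr7:43436888-43437187, plus strand: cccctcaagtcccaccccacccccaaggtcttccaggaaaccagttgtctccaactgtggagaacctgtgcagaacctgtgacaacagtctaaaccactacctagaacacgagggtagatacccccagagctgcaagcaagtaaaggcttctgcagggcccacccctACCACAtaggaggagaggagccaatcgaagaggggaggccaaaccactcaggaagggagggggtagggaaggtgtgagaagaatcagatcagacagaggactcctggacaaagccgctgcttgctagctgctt
Ly6c2, chr15:75112118-75112177, minus strand: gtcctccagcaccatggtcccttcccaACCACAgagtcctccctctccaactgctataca
Cst7, chr2:150570200-150570259, plus strand: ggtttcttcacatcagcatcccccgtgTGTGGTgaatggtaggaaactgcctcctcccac
Xcl1, chr1:164935717-164935772, minus strand: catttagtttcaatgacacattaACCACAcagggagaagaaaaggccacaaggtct
Plac8, chr5:100572374-100572433, minus strand: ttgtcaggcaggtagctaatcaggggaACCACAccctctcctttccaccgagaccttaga
Runx3, chr4:135120484-135120543, plus strand: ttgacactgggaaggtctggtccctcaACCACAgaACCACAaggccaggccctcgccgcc
The matches begin 83 bases before the start in Nkg7, 179 in Ly6c2, 188 in Cst7 and 227 in Xcl1. Plac8 held 3 matches in its 300 bases and Runx3 held 2, which lie beside each other in the stretch shown.

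Against the 92 effector-type CD8 cells of library 1, 37 of 6622 tested genes were higher in members (0.559%) and 228 were lower (3.44%), with a median log2 ratio of -0.14 over all genes. Setting that median to 0 gave 58 higher and 164 lower. Of 13 genes that the naming rule took on the higher side, Ccr9 had 52.1 CPM in members and 16.4 CPM in effector-type cells, Il6st, the shared receptor chain of the interleukin 6 family, 72.4 and 30.0 CPM, and Actn1, an actin crosslinker, 171 and 72.6 CPM. Bach2 had 86.3 and 40.6 CPM and Slamf6, a receptor of the T cell surface, 91.6 and 44.5 CPM. The remaining higher genes included Mgp and Lyz2, of which 1 member held 90.9% and 35.6% of the members' UMIs. The naive lists held few calls in this comparison: 1 of 10 homing genes outside the rule (Ccr9), 1 of 13 transcription factors (Bach2) and 1 of 15 surface and other naive genes (Actn1) were higher, and Ms4a4b was lower. Without cells that carried other-cell markers 17 genes were higher, of which 8 were among the 37.

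Lower genes included those of killing and of the interferon response. Of 16 tested memory genes 14 were lower in members, and of 10 killing genes outside the rule 8 were lower. Ccl5, a chemokine of activated T cells, had 122 CPM in members and 1549 CPM in effector-type cells, and Gzma, a granzyme, had 6.18 and 465 CPM, with 47.0% of the effector-type UMIs in 1 cell. Ifitm1, an interferon-induced membrane protein, had 1.41 and 171 CPM, but 1 effector-type cell held 80.2% of that class's UMIs. Klrk1 had 7.40 CPM in members and 153 CPM in effector-type cells. Ifng had 5.15 CPM in members and 101 CPM in effector-type cells, and Prf1, which encodes perforin, 15.7 and 60.9 CPM. Of 24 interferon-induced genes 13 were lower and none higher, with a median log2 ratio of -1.07. Isg15 had 123 CPM in members and 340 CPM in effector-type cells, and Irf7, a factor that amplifies the interferon response, 103 and 210 CPM. The 9 NK cell markers, of which several are also genes of activated CD8 T cells, summed to 838 CPM in the effector-type class against 61 CPM in members, and their part in these ratios was not tested.

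With strict effectors, chosen for more Gzmb and less Lef1, Tcf7 and Ccr7, the separation was wider. That choice partly sets the counts for naive, memory and killing genes, which describe the classes and are no separate support for the label. Against the 16 strict effectors of library 1, 76 of 6344 genes were higher in members (1.20%) and 437 lower (6.89%). The median log2 ratio over all 6344 genes was -0.39, and ribosomal protein genes took 29.6% of the UMIs of these 16 cells, against 42.9% in members. These 16 cells held only 126618 UMIs in all, which limits calls of genes with low CPM. The part of composition and depth in the 2 counts was not tested. Within that library 8 of 13 transcription factors outside the rule were higher and 1 lower (Runx3), and 7 of 15 surface and other naive genes were higher and 1 lower (Ms4a4b). Of 15 memory genes 14 were lower, and of 8 killing genes 5 were, Gzmb among them by the rule. Against the 221 strict effectors of library 2, 572 of 7174 were higher (7.97%) and 1436 lower (20%), with a median log2 ratio of -0.18. Here class and library cannot be told apart. Against these 221 cells, 11 of 13 transcription factors outside the rule were higher in members. Of 15 surface and other naive genes 9 were higher and 1 lower (Ms4a4b). Of 18 memory genes 16 were lower, and all 14 tested killing genes were lower, Gzmb among them by the rule. Nkg7 had 367 CPM in members and 2460 CPM in these strict effectors, Xcl1, a chemokine that attracts dendritic cells, 53.5 and 989 CPM, and Pdcd1, the inhibitory receptor PD-1, 2.06 and 102 CPM. In library 2 strict effectors the 14 myeloid markers summed to 6095 CPM, against 715 CPM in members and 347 CPM in screened members, and 13 of 13 tested myeloid markers were lower in members.

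**Figure D3:**
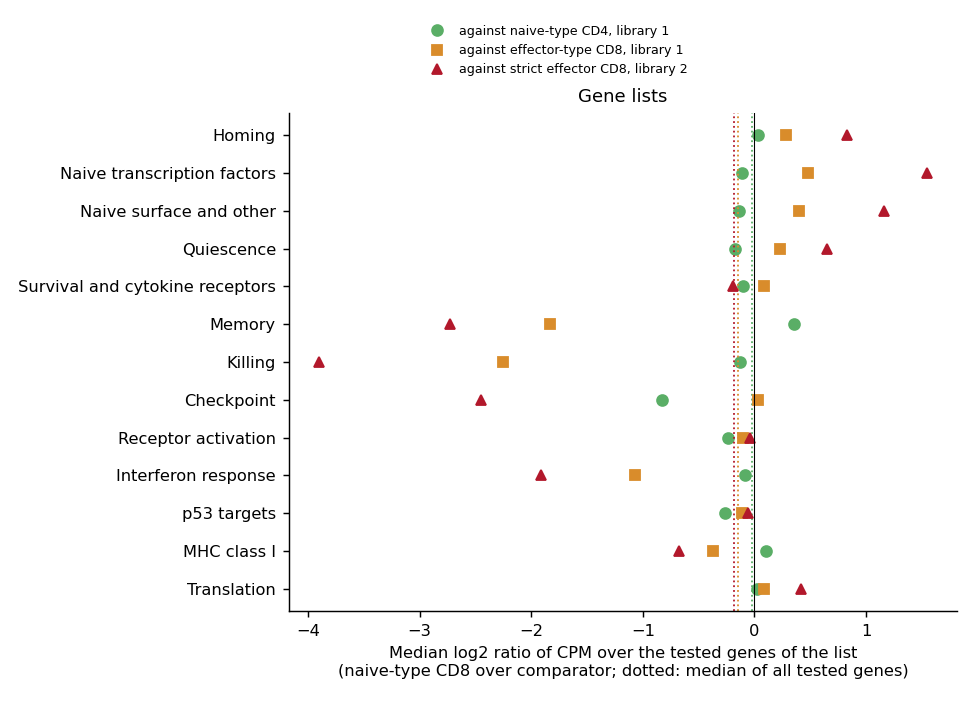
Median log2 ratio of CPM (naive-type CD8 cells over the comparison class) for 13 gene lists, leaving out genes of the rule, against naive-type CD4 cells (circles), effector-type CD8 cells of library 1 (squares) and strict effectors of library 2 (triangles); dotted lines are the medians of all tested genes. The homing, transcription factor and surface lists lie above 0 against both effector classes, and the memory, killing and interferon lists lie below 0 against both.

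Although Gzmb was absent by rule, many members held memory genes. At least 2 UMIs of Cxcr3, Il2rb, Eomes and Ccl5 together were found in 426 of 1356 members (31.4%, exact binomial interval 29.0% to 34.0%), and in 30.0% of screened members. Thinned to 4000 UMIs a cell, the share was 17.0% in members, 3.77% in naive-type CD4 cells, 2.53% in B cells and 69.6% in effector-type CD8 cells. Without Il2rb the thinned shares were 7.74% in members, 1.67% in naive-type CD4 cells and 2.30% in B cells, and 54.3% in effector-type cells. Eomes, a transcription factor of memory and killing, had 24.9 CPM in members, 0.642 CPM in naive-type CD4 cells and 97.7 CPM in effector-type cells. Tbx21, which encodes its relative T-bet, had 1.69 CPM in members and 26.1 CPM in effector-type cells, and Cxcr3 had 7.68 CPM in members, 7.06 CPM in naive-type CD4 cells and 57.1 CPM in effector-type cells. Cd44, the classical antigen of experienced T cells, had 24.5 CPM in members, 32.3 CPM in naive-type CD4 cells and 127 CPM in strict effectors of library 2.

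Ly6c2 divided the members. Thinned to equal depth, 52.3% of members had no Ly6c2 UMI, 22% had 1 or 2, 12.8% had 3 to 5, 8.85% had 6 to 10 and 4.06% had more than 10. Among naive-type CD4 cells 91.6% had none and 0.418% more than 10. Screened members with 3 or more thinned Ly6c2 UMIs (321, median 7569 UMIs) were set against those with none (690, median 6271 UMIs), a division made after the values were seen. Of 5229 genes tested, 16 were higher in the first set (0.306%) and 9 lower (0.172%). Ccl5 had 255 CPM in members with Ly6c2 and 43.3 CPM in those without, Eomes 37.1 and 12.9 CPM with 33.3% of the UMIs without Ly6c2 in 1 cell, and Plac8 398 and 135 CPM. Ms4a4c had 107 CPM with Ly6c2 and 32.5 CPM without, and Hopx, a homeodomain protein, 75.3 and 32.7 CPM.

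Some naive genes were near level across that division and others were not. Il7r had 423 CPM in members with Ly6c2 and 448 CPM in those without, Ccr7 573 and 727 CPM, Klf2 1762 and 1736 CPM, and Lef1 394 and 459 CPM. Dapl1 had 444 CPM with Ly6c2 and 291 CPM without, S1pr1 295 and 387 CPM, and Igfbp4 53.5 and 84.2 CPM, all below the 2-fold limit. On the lower side, Itgae had 20.6 CPM in members with Ly6c2 and 54.4 CPM in those without, Ccr9 28.6 and 69.5 CPM, and Sox4, a transcription factor, 17.2 and 36.4 CPM. Of 11 tested memory genes other than Ly6c2, 3 were higher in members with Ly6c2 (Ccl5, Eomes and Ly6a) and none lower, with a median log2 ratio of 0.79 against -0.04 over all genes. The median of the 21 tested interferon-induced genes was also above that of all genes, at 0.46, with 1 gene higher (Isg20) and none lower. How memory and interferon genes relate in this division was not tested. Of 11 homing genes 2 were lower (Ccr9 and Itgae), and of the 15 tested genes listed as naive transcription factors none was called. Of 15 surface and other naive genes, the list that holds Sox4, 1 was lower (Sox4) and none higher. The myeloid genes Apoe and Lyz2 had 51.2 and 13.4 CPM in members with Ly6c2 and 56.0 and 22.9 CPM in those without. The screen had left out cells with 3 or more UMIs of Lyz2, Csf1r and Apoe together. Both values were thus limited in advance and cannot show whether myeloid transcripts differ across the division.

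**Figure D4:**
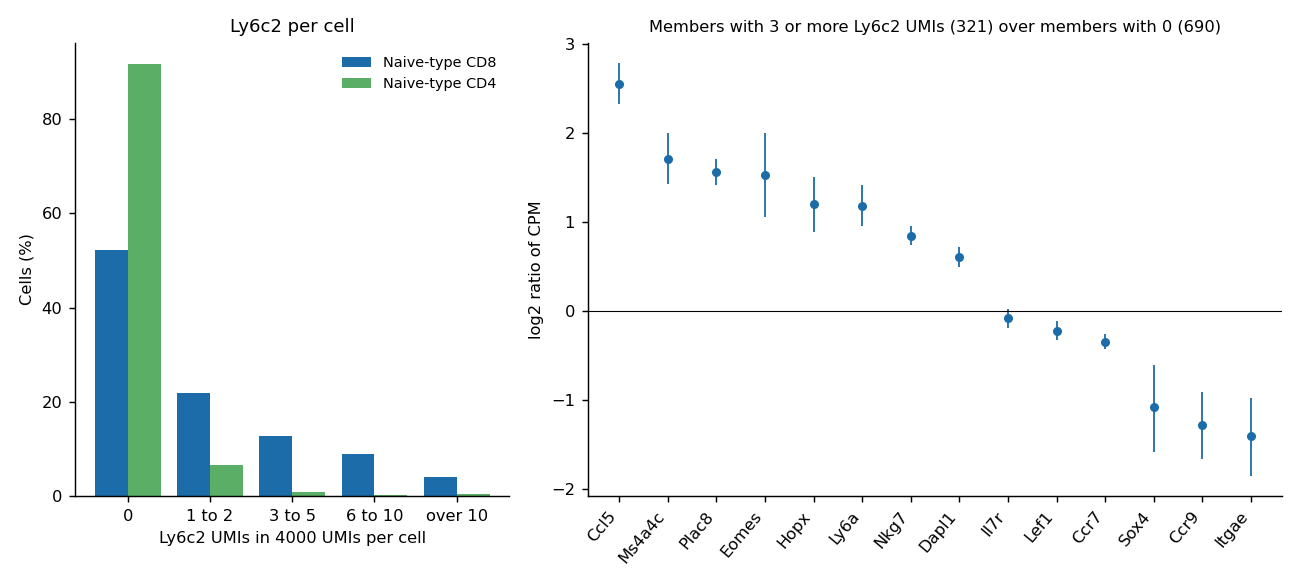
Left, percent of naive-type CD8 cells and naive-type CD4 cells of library 1 by Ly6c2 UMIs after thinning to 4000 UMIs per cell. Right, log2 ratio of CPM with its exact 95% interval for 14 genes in 321 screened members with 3 or more Ly6c2 UMIs over 690 with none; Ccl5, Ms4a4c and Plac8 lie highest, and Sox4, Ccr9 and Itgae lie below -1.

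Pairs of genes were set against each other within screened members at equal depth. Itgae was found in 24.5% of the 212 members with a Ccr9 UMI (exact interval 18.9% to 30.9%) and in 13.6% of the 1075 without (11.6% to 15.8%). Ly6c2 was found in 31.6% of members with Ccr9 and in 49.3% of those without, and in 32.3% of members with Itgae and 48.9% of those without. Il2rb was found in 46.0% of members with Eomes and in 29.9% of those without. Cd5, a negative regulator whose level follows the strength of self-recognition in mouse T cells, was found with Ly6c2 more often, since 59.6% of members with Cd5 and 44.4% of those without had Ly6c2. Members with Cd5 were also deeper, with medians of 7134 UMIs against 6630.5, before thinning. These are shares of cells of 1 library and no test was made.

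The interferon list varied widely among members, and as widely among naive-type CD4 cells. Its 24 genes together had a median of 8 UMIs per member at 4000 UMIs, a 90th percentile of 21 and a maximum of 136. Naive-type CD4 cells also had a median of 8, with a 90th percentile of 23 and a maximum of 183. Effector-type CD8 cells of library 1 had a median of 20 and a 90th percentile of 59.7, and strict effectors of library 2 had 33 and 73. Isg15 had 123 CPM in members and 835 CPM in strict effectors of library 2, and Ifi27l2a 1097 and 3491 CPM.

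T cell receptor variable genes were seen in part of the members only, in libraries read from the 3′ end, far from the variable region. Exactly 1 beta variable gene was found in 292 of 1356 members, and 21 different genes were seen. The most frequent was Trbv12-2 in 40 of the 292 (13.7%, exact interval 10.0% to 18.2%), then Trbv3 (9.59%) and Trbv19 (9.25%). Naive-type CD4 cells gave 22 genes over 139 cells, led by Trbv19 (12.2%). Strict effectors of library 2 gave 13 genes over 55 cells, led by Trbv2 (23.6%, 13.2% to 37.0%) and Trbv16 (21.8%), which made up 7.88% and 7.19% of the 292 members with exactly 1 beta gene. Of the alpha variable genes 61 were seen over 285 members, the most frequent Trav16n at 10.5%. The pooled matrix lists 128 alpha and 35 beta variable genes, so the numbers seen do not compare the variety of the chains. Variable genes have near-identical copies, mainly among alpha genes, so the assignment to a single copy is uncertain.

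**Figure D5:**
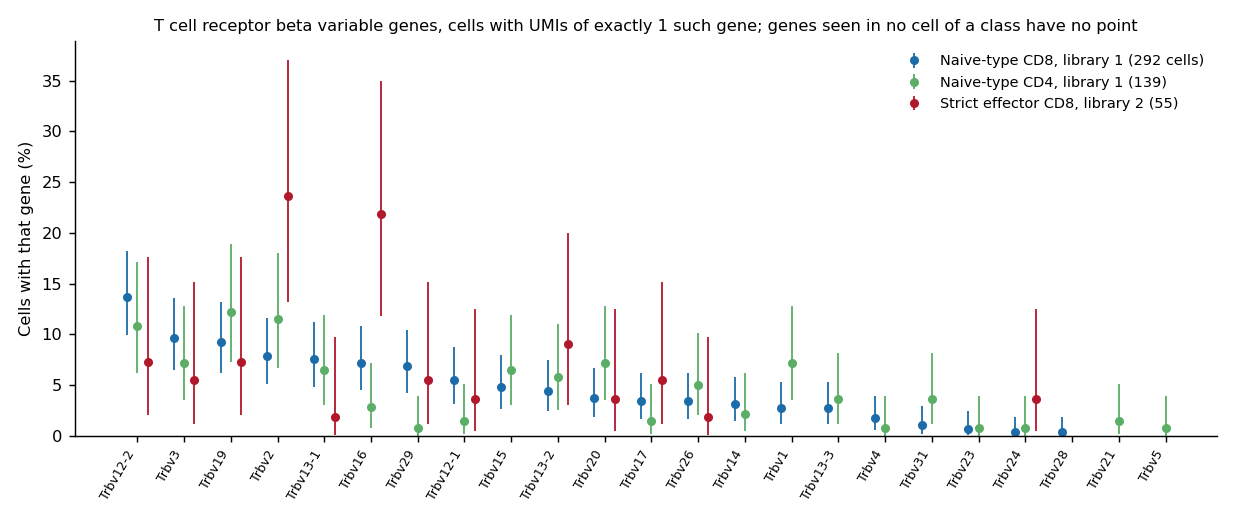
Percent of cells with each T cell receptor beta variable gene among cells with UMIs of exactly 1 such gene, with exact binomial 95% intervals, for naive-type CD8 cells (292), naive-type CD4 cells (139) and strict effectors of library 2 (55). Naive-type CD8 cells are spread over 21 genes with none above 13.7%, and Trbv2 and Trbv16 lie above 20% in the strict effectors.

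The limits of the rule were examined on both sides. The 29 members of library 1 with exactly 2 UMIs of Lef1, Tcf7 and Ccr7 had 183 CPM of Dapl1, 819 CPM of Nkg7 and 350 CPM of Ccl5. The 17 cells just outside, with 1 such UMI, had 188, 801 and 979 CPM of these genes, and 15 cells with none had 167, 1521 and 1011 CPM. Members with only 1 Cd8b1 UMI numbered 243 and had 305 CPM of Dapl1 and 270 CPM of Nkg7. All members stood at 367 CPM of Nkg7 and 122 CPM of Ccl5, below the cells at the edge of the naive limit.

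The 22 members of library 2 differed from those of library 1 in most of these genes. S1pr1 had 61 CPM in library 2 members and 340 CPM in library 1 members, Klf2 512 and 1705 CPM, Il7r 98.6 and 430 CPM, and Dapl1 122 and 351 CPM. Nkg7 had 1342 CPM in library 2 members and 367 CPM in library 1 members, Ccl5 652 and 122 CPM, and Cdkn1a 408 and 34.1 CPM. The 14 myeloid markers summed to 5553 CPM in library 2 members and 715 CPM in library 1 members, and the 11 dendritic cell markers to 4581 and 211 CPM. Few cells carried the dendritic sum in library 2, where 5 of the 22 had 3 or more such UMIs and the median Cd74 count per cell was 0 UMIs with a maximum of 271. Of the 22 cells, 12 were among those with other-cell markers or over 20000 UMIs, against 69 of 1356 in library 1. A single library 2 member held 31.1% of the Ccr7 UMIs of that library's members, and a single member held 46.0% of those of Ccl5 and 44.8% of those of Cdkn1a. At least 2 UMIs of the 4 memory genes were found in 14 of the 22 (63.6%). The label held less well in library 2, where S1pr1, Il7r and Dapl1 were low, and members of library 2 entered none of the ratios above. Class, library and other-cell transcripts cannot be told apart in these 22 cells.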

How the data were processed

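Droplet 3′ single-cell RNA libraries of CD45-selected tumour cells, 1 per group, were deposited as 1 pooled matrix of UMI counts per gene and barcode, made by the authors with Cell Ranger 3.1.0 per the file headers, on mm10 per the submitters' processing notes. The counts were used as deposited, without normalization. The number behind each barcode was read as library 1 or 2 and was not linked to a group.

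Classes were cut by the UMI limits given above. UMIs were summed over the cells of a class and divided by its total (CPM, exact Poisson interval). Ratios between classes of 1 library carry exact conditional binomial intervals, shares exact Clopper-Pearson ones; all are 95% intervals and cover counting error only. A gene was called at 2-fold or more with an interval outside 1.5-fold and at least 100 UMIs in both classes together. Cells are not replicates, so no test was made. For equal depth each cell was thinned to 4000 UMIs, which all members reached; 3 counts served as the floor for a count of 0. Scrublet in scanpy 1.11.5 marked 0 of 5320 and 0 of 7194 barcodes by its automatic limit and so did not work as a caller; doublets were weighed by other-cell markers, totals over 20000 UMIs and the 5% highest scores. The ratio procedure was tested on simulated data. Named genes were members of 31 lists, the 15 highest and 15 lowest called ratios with at least 50 CPM in 1 class, the most abundant genes and the most frequent receptor genes; Ms4a4c, Hopx and the Y-linked genes were chosen after their values were seen. The members and lists were chosen with earlier results of these data known. Python 3.11.15, numpy 2.4.6, scipy 1.17.1 and pandas 2.3.3 were used. Alternatives changed the limits of the rule, the UMI minimum, the centring, the cells left out and the effector class. Some genes are not reported here.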

Additional observations from a re-analysis of the deposited data

How the results depend on the processing

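The share of naive-type CD8 cells in library 1, 25.5% of barcodes, was 20.9% with at least 2 Cd8b1 UMIs, 20.8% with at most 5% mitochondrial UMIs and 24.2% without cells with other-cell markers or over 20000 UMIs. Against naive-type CD4 cells, 89 higher and 94 lower genes became 141 and 272 with no UMI minimum; under the other alternatives the counts ran from 62 to 98 and from 67 to 112. Without cells with other-cell markers 78 of the 89 higher and 63 of the 94 lower genes were called again. Against effector-type CD8 cells, 37 genes were higher, but 17 without such cells (8 of them among the 37), 58 with the median ratio set to 0 and 384 with both libraries summed. The 228 lower genes became 451 with no UMI minimum and 1501 with both libraries summed. Without cells with other-cell markers 216 were lower, 150 of them among the 228. Strict effectors gave 76 higher and 437 lower genes in library 1, and 572 and 1436 in library 2. The share of members with memory genes, 31.4%, was 17.0% at 4000 UMIs a cell, 56.0% with at least 1 UMI, 18.1% with at least 3 and 13% without Il2rb. The causes of these moves were not tested. The strict classes, the genes left out for resting on 1 cell and the Ly6c2 division were chosen after seeing the data. No paired analysis was possible because each group has 1 library, and the libraries are not linked to groups. Depth limits genes under about 10 CPM most, where a class of 92 cells holds few UMIs.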
